A study of Mus musculus with 8 samples.

Results

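Immature thymic dendritic cells of the mouse were set against each other by whether they carried Sirpa, the signal-regulatory protein on the surface of myeloid cells that binds CD47. The comparison took in every array labelled immature, which is 4 of the 8 arrays in the study. Of these, 2 held Sirpa-positive cells (replicates 3 and 5) and 2 held Sirpa-negative cells (replicates 4 and 7). The other 4 arrays held Sirpa-positive (replicates 1 and 6) and Sirpa-negative (replicates 2 and 8) mature cells and served as a second set for the same contrast. All 4 groups were sorted from thymus as dendritic cells, and the labels name Sirpa and maturation status as the basis of the sort. No other sort marker, strain, age, genotype or treatment is named in the labels used here, and they do not tell if the cells on a group's 2 arrays were taken from different mice or in different sorts. P-values therefore measure only how far these particular samples spread, and that spread could be technical.

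Thymic dendritic cells present antigen to developing T cells, delete self-reactive clones and support the formation of regulatory T cells. Conventional dendritic cells fall into a type 1 lineage, which depends on the transcription factors IRF8 and BATF3, carries XCR1, CLEC9A and CD8α and specialises in cross-presentation, and a type 2 lineage, which depends more on IRF4 and carries Sirpα and CX3CR1. In the thymus the type 1 cells are largely formed from progenitors inside the organ, whereas many Sirpα-bearing cells enter from the blood. Sirpα is also carried by macrophages and monocytes, and plasmacytoid dendritic cells carry it as well.

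Amplified RNA was labelled with Cy3 and hybridised to 8 Agilent arrays on 1 slide, with 1 array of each group in each of 2 slide rows. Levels are given as log2 signal after the array's 75th percentile was subtracted, so that 0 is that percentile, and a difference of 1 is a doubling. Between 52.9% and 65.5% of the spots were well above background on an array, with 61.9% to 65.5% in the first slide row and 52.9% to 57.9% in the second. No spot was saturated, and precision is limited by how many arrays there are. The test covered 24148 genes, 13867 of them with a RefSeq symbol, each through the brightest of its probes that passed the scanner software's background test on both arrays in 1 group or more. Differences were tested with limma over all 8 arrays with Benjamini-Hochberg adjustment, and a gene was called at an adjusted p below 0.05, the adjusted p given throughout. Array values are listed in the order of the replicates, 3 and 5 for Sirpa-positive cells and 4 and 7 for Sirpa-negative cells.

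Sirpa, the gene used for the sort, stood at 4.68 and 4.54 in the Sirpa-positive arrays and at -2.24 and -2.19 in the Sirpa-negative arrays. Both Sirpa-positive arrays lay far above both Sirpa-negative ones, as the labels say. The genes that mark conventional dendritic cells in general were bright on both sides. Itgax, which encodes CD11c, was at 4.48 and 4.75 against 3.99 and 3.70 (difference 0.77 ± 0.248 (SE), limma adjusted p = 0.105). Zbtb46, a transcription factor of conventional dendritic cells, was at 1.55 and 2.08 against 2.55 and 2.62, a difference of -0.77 ± 0.238 that did not pass (limma adjusted p = 0.0898). The MHC class II chain gene H2-Aa was at 8.41 and 8.06 against 8.68 and 8.43 (-0.32 ± 0.276, limma adjusted p = 0.519). Siglech, a receptor of plasmacytoid dendritic cells, was also bright on all 4 arrays, at 6.05 and 6.14 against 6.26 and 6.61, and its difference of -0.34 did not pass. Other plasmacytoid markers did differ: of 21 tested, 7 were higher and 1 lower, against 7.23% and 4.39% of all genes.

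**Figure D1:**
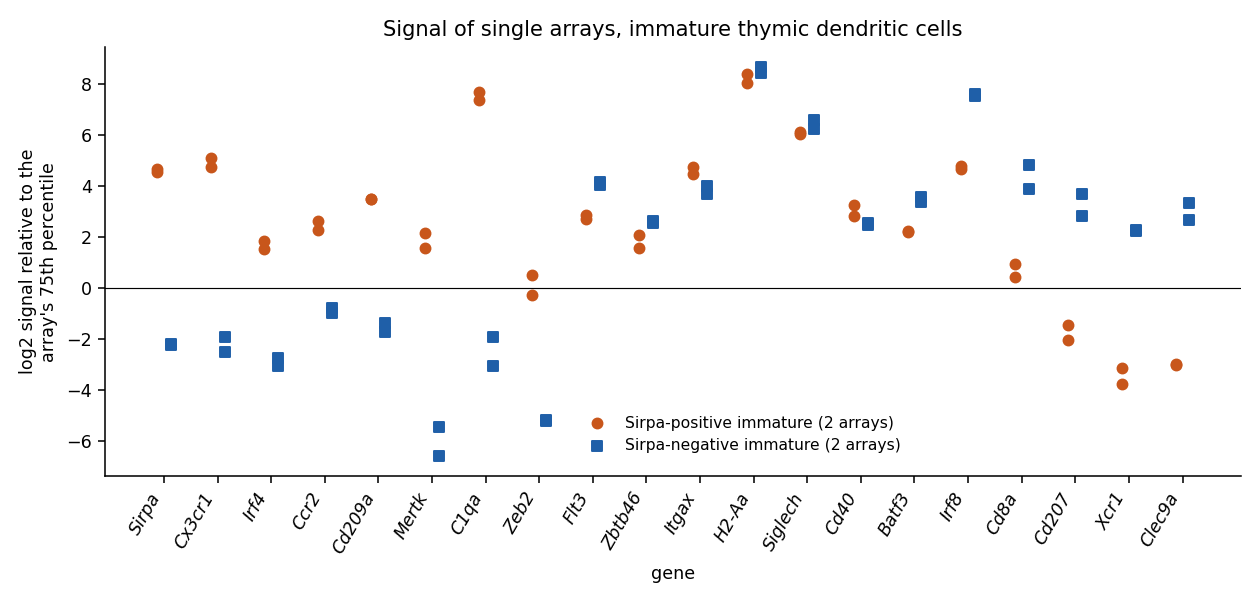
Log2 signal relative to the array's 75th percentile (vertical axis) for 20 genes (horizontal axis) on the 2 Sirpa-positive (orange circles) and 2 Sirpa-negative (blue squares) immature arrays. The arrays of the 2 groups lie apart from Sirpa through Zeb2 on the left and from Batf3 through Clec9a on the right, while those of H2-Aa and Siglech lie close together.

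Of the 24148 genes, 2806 (11.6%) were called: 1746 (7.23%) were higher and 1060 (4.39%) lower in Sirpa-positive immature cells. Of the 13867 genes with a RefSeq symbol, from which the gene lists are drawn, 1345 were higher and 739 lower (15% called). Every list count below is to be read beside these shares. The large differences lay mostly on the higher side. For 398 higher and 88 lower genes neither array of the other group was well above background, so their change is given as a lower bound, written "at least". With these genes at their bound, a fold change of 2 or more was reached by 1459 of the higher and 850 of the lower genes, and one of 8 or more by 355 and 78. The 4 immature arrays did not overlap between groups for 59.2% of all genes, and the median difference of all genes was -0.11. All 2804 called genes that could be measured in both slide rows had the same direction in each row. The rows hold the same arrays that gave the calls, so this follows largely from the calling and is no separate support. The total was 1232 without Sirpa-positive replicate 3 and 1665 without Sirpa-positive replicate 5, and 1557 when dim probes were kept in the test.

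**Figure D2:**
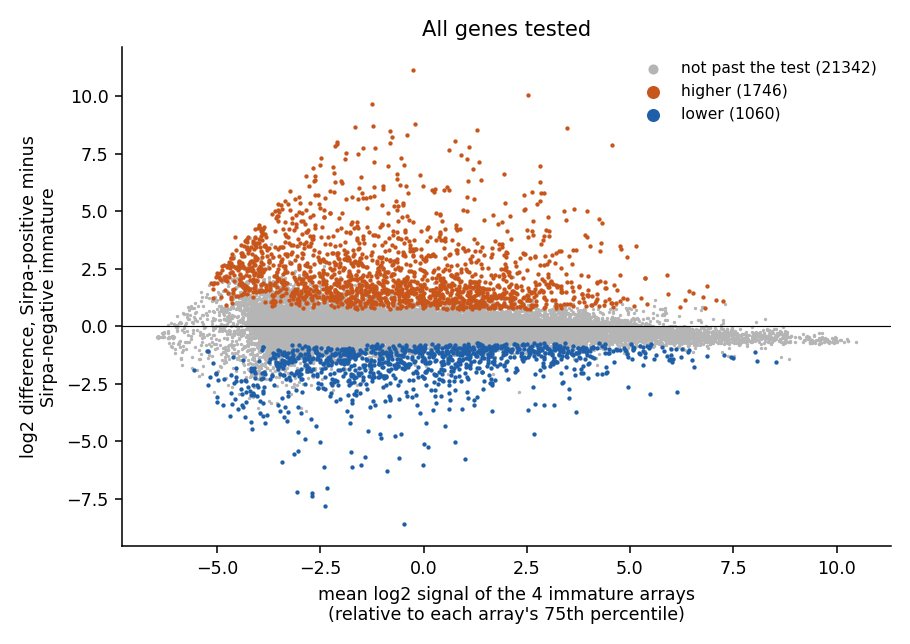
Log2 difference between Sirpa-positive and Sirpa-negative immature cells (vertical axis) against the mean log2 signal of the 4 immature arrays (horizontal axis), 1 point a gene. Called genes are orange (1746 higher) and blue (1060 lower), and the largest differences lie on the higher side.

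Markers of macrophages and monocytes moved together with the Sirpa-positive group. Of 28 such genes tested, 27 were higher and 0 lower, against 7.23% and 4.39% of all genes, and their median difference was 4.55. Their summed signal, on a scale where 1 is the array's 75th percentile, was 1496 and 1121 on the Sirpa-positive arrays and 161 and 175 on the Sirpa-negative arrays, where a single gene, Ly6c1, gave 85.4% of it. The median difference of the list was 4.61 in the first slide row and 4.44 in the second. On both Sirpa-negative arrays 8 of the 28 were not well above background, and on both Sirpa-positive arrays 0 were. These 8 entered the test only through another group in which they were bright, so that their direction could be set by the filter. With probes above background on all 8 arrays, 17 members were higher and 0 lower. Among the 28 genes, 16 also stood in another of the lists used here, 2 of them in that of type 2 dendritic cells. In bulk samples such as these, fewer cells of a type and less RNA per cell cannot be told apart, and the part of macrophages or monocytes in any result given here was not tested.

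**Figure D3:**
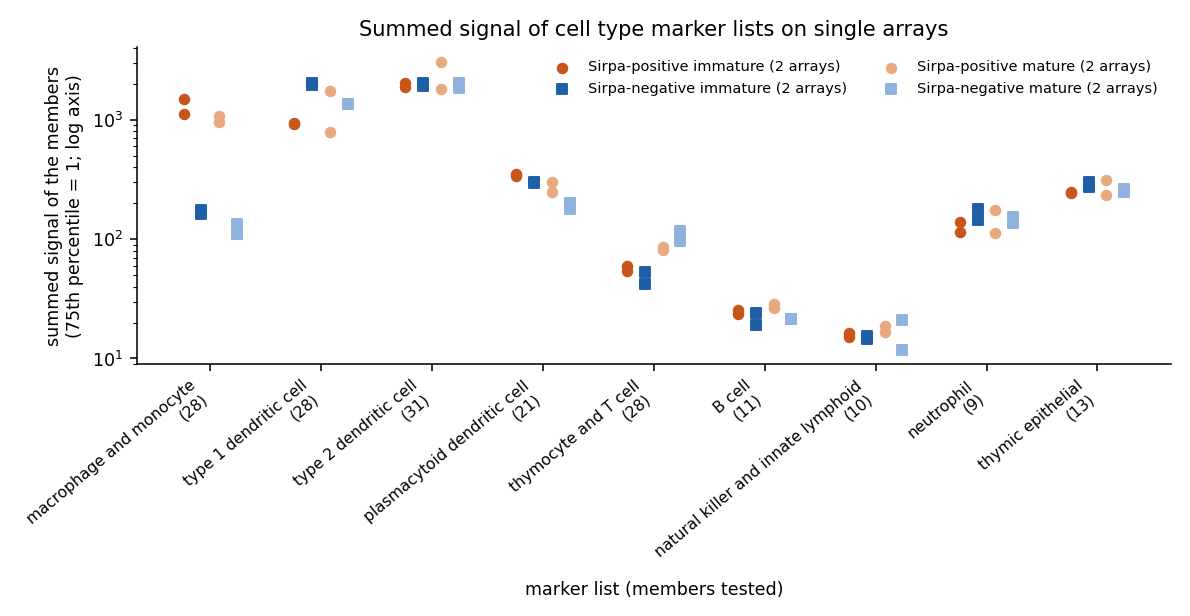
Summed signal of the members of 9 cell type marker lists (vertical log axis, where 1 is the array's 75th percentile) on each of the 8 arrays, grouped by list (horizontal axis, with the number of members tested). The macrophage and monocyte sum was 1496 and 1121 on the Sirpa-positive immature arrays against 161 and 175 on the Sirpa-negative ones.

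The largest differences were those of C1qc and C1qa, which with C1qb encode the chains of the first complement component, made in quantity by tissue macrophages. C1qc stood at 5.72 and 4.90 in Sirpa-positive cells against -5.38 and -6.28, not well above background, a level at least 585-fold higher (fitted log2 difference 11.14 ± 0.489, limma adjusted p = 3.43e-05). C1qa was at 7.71 and 7.40 against -1.95 and -3.05 (1062-fold higher, limma adjusted p = 2.37e-05), and C1qb at 7.97 and 7.61 against -0.66 and -1.02 (396-fold, adjusted p = 2.28e-05). The 3 genes thus lay below the array's 75th percentile in Sirpa-negative cells and above it in Sirpa-positive ones. C1qa and C1qb were well above background on both Sirpa-negative arrays too. Next in size of the fitted difference came Gpnmb, a glycoprotein of lysosome-rich phagocytes (at least 176-fold higher), and Ms4a7, a 4-span membrane protein of macrophages (at least 269-fold). Cp, the copper-carrying ferroxidase ceruloplasmin, was at least 129-fold higher, and Mmp12, macrophage elastase, 368-fold. The lectin receptor genes Clec4a1 (at least 158-fold), Clec4a3 (at least 95.4-fold) and Clec4n, which encodes Dectin-2 (at least 126-fold), followed. Also in the leading 15 were the secreted phospholipase Pla2g2d (at least 201-fold), the growth factor Igf1 (at least 151-fold), Tarm1, an activating receptor of myeloid cells (at least 55.7-fold), and Mertk, a receptor kinase for dying cells (at least 53.9-fold). Olfml3 completed them at a difference of 8.05 ± 0.293, with 1 of 2 Sirpa-negative arrays above background. Where a gene had several probes, their fitted log2 differences could be unlike in size: they ran from 2.99 to 8.24 over 4 probes of Igf1, from 5.89 to 8.33 over 2 of Pla2g2d and from 5.92 to 8.05 over 2 of Olfml3, so that these folds hold for the brightest probe. Each of these probes passed as higher. Among genes described further on, the same held for Csf1r (1.68 to 4.58), Nr1h3 (4.24 to 6.46), Tlr7 (2.97 to 4.66) and Hmox1 (1.11 to 2.52). On the lower side, the 2 probes of Cd8a gave -3.66 and -2.21, and both passed as lower. All 15 leading genes were also called higher in the mature Sirpa-positive cells. So were 40.5% of all genes called higher among immature cells, and 3.38% of all genes tested.

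The 15 largest differences in the other direction included 4 genes of the type 1 dendritic cell list (Gpr141b, Gcsam, Clec9a and Xcr1) together with several receptors and enzymes. Gpr141b, an orphan receptor gene, stood at -3.87 and -5.66 in Sirpa-positive cells against 3.72 and 3.91 in Sirpa-negative ones (-8.58 ± 0.505, limma adjusted p = 9.06e-05), with 1 of 2 Sirpa-positive arrays above background. Gcsam, a signalling adaptor of germinal centre B cells, was at -6.18 and -6.41 against 1.58 and 1.47, at least 60.6-fold lower. Both genes were thus bright in Sirpa-negative cells alone. Naalad2, a peptidase (at least 41.5-fold lower), Cltrn, collectrin (at least 39.6-fold), Clnk, an immunoreceptor adaptor (at least 30.6-fold), and Fzd1, a Wnt receptor (at least 47.98-fold), were not above background on the Sirpa-positive arrays. The same held for the alkaline phosphatase gene Alpl (at least 32.8-fold), the sterol hydroxylase gene Cyp8b1 (at least 15.05-fold) and Gramd2 (at least 16.5-fold). The orphan receptor gene Gpr33 (difference -6.29), the lectin receptor gene Clec1a (-5.67) and Ildr1 (-5.46) were above background on 1 of 2 Sirpa-positive arrays. Clec9a (64.6-fold lower), Notch4 (55.2-fold) and Xcr1 (52.3-fold) were measured on all 4. All 15 were also called lower in the mature Sirpa-positive cells. So were 32.4% of all genes called lower among immature cells, and 2.1% of all genes tested.

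Transcription factors of the dendritic cell lineages moved both ways. Of 46 tested, 12 were higher and 10 lower, beside 7.23% and 4.39% of all genes. Irf4, the factor of the type 2 lineage, stood at 1.52 and 1.84 in Sirpa-positive cells against -2.74 and -3.06 (23.9-fold higher, 4.58 ± 0.248, limma adjusted p = 7.20e-05). Irf8, the factor of the type 1 lineage, was at 4.66 and 4.79 against 7.60 and 7.53 (7.20-fold lower, -2.85 ± 0.246, adjusted p = 4.59e-04). The 2 factors ran opposite to each other, with no overlap between groups for either, as for 59.2% of all genes. Zeb2, a repressor needed by several myeloid lineages, was at least 15.97-fold higher on its brightest probe (log2 differences of its 2 probes 3.40 to 5.32), Maf at least 9.28-fold and Cebpa 13.4-fold, and the last 2 belong to the macrophage and granulocyte programmes. Tcf4, the factor of plasmacytoid dendritic cells, was 3.19-fold higher. On the lower side, Mycl, which supports type 1 cells, was 7.36-fold lower and the repressor Bcl6 3.78-fold.

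Other lineage factors were not called when single arrays were left out. Batf3 was at 2.19 and 2.25 against 3.59 and 3.39 (2.41-fold lower), with an adjusted p of 0.00660 (limma), but 0.0634 without Sirpa-positive replicate 3. Id2, an inhibitor of E proteins, was 3.48-fold lower (limma adjusted p = 0.0218, but 0.0709 to 0.112 without Sirpa-positive replicate 5, Sirpa-negative replicate 4 or Sirpa-negative replicate 7). Klf4, needed by a part of the type 2 cells, was 2.75-fold higher (adjusted p = 0.00687, but 0.0685 without Sirpa-positive replicate 3). Nfil3, an early factor of the type 1 lineage, went against its list, at 1.54 and 1.55 against 0.22 and 0.88 (limma adjusted p = 0.0495, but 0.185 to 0.227 without Sirpa-positive replicate 3, Sirpa-positive replicate 5 or Sirpa-negative replicate 4). The count of lower factors was 5 without Sirpa-positive replicate 3 and 6 without Sirpa-positive replicate 5 or Sirpa-negative replicate 7. Runx3 (0.66, 95% interval -0.13 to 1.45) and Notch2 (-0.39, -0.85 to 0.07) did not pass.

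Type 1 dendritic cell markers were lower in Sirpa-positive cells almost throughout. Of 28 tested, 24 were lower and 1, Nfil3, was higher, with a median difference of -3.08, and leaving out 1 array at a time left 21 to 22 lower. The lower count was 19 with probes above background on all 8 arrays. Xcr1, the chemokine receptor that defines the lineage, stood at -3.13 and -3.79 in Sirpa-positive cells against 2.27 and 2.23 (limma adjusted p = 5.65e-05). Clec9a, a receptor for actin exposed by dead cells, was at -3.02 and -3.002 against 2.65 and 3.35 (limma adjusted p = 5.65e-05). Neither gene overlapped between groups, which held for 59.2% of all genes, but both were above background on the Sirpa-positive arrays. Cd8a was at 0.94 and 0.45 against 4.83 and 3.88 on its brightest probe (12.6-fold lower, limma adjusted p = 0.00135), and the sialoglycoprotein gene Cd24a was 5.43-fold lower. Of the uptake receptors, Ly75 (DEC-205) was 9.27-fold lower, Cd207 (langerin) 32.7-fold and the scavenger receptor Cd36 23.3-fold. The adhesion molecule gene Cadm1 was 3.73-fold lower, the lipid phosphatase gene Plpp1 25.6-fold and the inhibitory receptor gene Btla 4.04-fold. Flt3, the receptor for the growth factor of all dendritic cells, was 2.48-fold lower (limma adjusted p = 0.00565, but 0.0606 without Sirpa-positive replicate 3).

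Type 2 dendritic cell markers ran the other way. Of 31 tested, 23 were higher and 1 lower, with a median difference of 3.33, and 21 to 24 were higher when 1 array at a time was left out. The higher count was 15 with probes above background on all 8 arrays. Apart from Sirpa itself (114-fold higher, 6.83 ± 0.224), the fractalkine receptor gene Cx3cr1 stood at 5.12 and 4.74 against -1.93 and -2.52 (143-fold, limma adjusted p = 2.37e-05). Cd209a, which encodes a DC-SIGN homologue, was at 3.51 and 3.49 against -1.39 and -1.75 (33.6-fold, adjusted p = 4.85e-05), and Ccr2, the receptor that brings cells in from blood, was 10.1-fold higher. The calcium-binding protein gene S100a4 was 32.4-fold higher, Ms4a6b at least 9.002-fold and Cd7 5.32-fold. Each of these genes separated the 2 groups of arrays without overlap, as did 59.2% of all genes. Csf1r, shared with the macrophage list, was bright in both, at 5.26 and 5.19 against 3.43 and 3.66 (3.21-fold higher). The summed signal of the list, on the scale where 1 is the array's 75th percentile, was 2033 and 1884 against 1908 and 2051 and overlapped between the groups. A single gene, Ms4a4c, gave 40.5% of it in Sirpa-positive and 59.3% in Sirpa-negative cells.

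Other type 2 markers were called less firmly, ran the opposite way or did not pass. The galactose lectin gene Clec10a was 6.34-fold higher (limma adjusted p = 0.0140, but 0.0564 to 0.0887 without Sirpa-positive replicate 3, Sirpa-positive replicate 5 or Sirpa-negative replicate 4) and its neighbour Mgl2 2.32-fold (adjusted p = 0.0120, but 0.0686 to 0.0881 without Sirpa-positive replicate 5 or Sirpa-negative replicate 4). Rnase6 was the lower member, at 1.89 and 2.49 against 3.37 and 3.25 (limma adjusted p = 0.0252, but 0.0817 to 0.175 without Sirpa-positive replicate 3, Sirpa-negative replicate 4 or Sirpa-negative replicate 7). Esam, a marker of the Notch2-dependent type 2 cells of spleen, was dim in all 4 arrays and did not pass (-0.26, 95% interval -1.42 to 0.89). Itgam, which encodes CD11b, was at 8.74 and 8.53 against 9.02 and 8.89 on its brightest probe (-0.32). Its 3 probes disagreed: 2 of them passed as higher, and the log2 difference of their mean was 1.27, which passed.

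The complement list holds the 3 C1q genes together with other components and receptors. Of 19 tested, 12 were higher, the 3 C1q genes among them, and 1 lower, with a median of 2.12. Only 7 were higher with probes above background on all 8 arrays. Cfb, factor B of the alternative pathway, stood at 5.06 and 4.92 in Sirpa-positive cells against -2.55 and -3.05 (221-fold higher, limma adjusted p = 2.28e-05). C2, its counterpart in the classical pathway, was at 2.60 and 2.39 against -3.68 and -3.63, with 1 of 2 Sirpa-negative arrays above background (6.15 ± 0.216, adjusted p = 2.37e-05). The higher members were components and receptors, and the lower one was the inhibitor Serping1, which fell by 0.97 (limma adjusted p = 0.0329, but 0.102 to 0.179 without any 1 of the 4 arrays).

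Receptors that bind dying cells were split between the subsets. Of 26 tested, 14 were higher and 4 lower, and with probes above background on all 8 arrays 8 were higher and 3 lower. The phosphatidylserine-sensing kinases Axl (4.68 and 4.57 against -2.54 and -3.11, 174-fold higher, limma adjusted p = 2.60e-05) and Mertk (2.17 and 1.57 against -5.48 and -6.62, at least 53.9-fold, adjusted p = 4.17e-04) were on the higher side. So were the scavenger receptor gene Stab1 (39.3-fold) and Itgb5, a chain of an integrin that binds bridging proteins (40.6-fold). The 4 lower members were Clec9a, Cd36, Treml4 (8.32-fold lower) and Anxa1 (2.97-fold lower), and each of them was called lower in every alternative in which it could be tested. More members of the list thus lay on the Sirpa-positive side.

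C-type lectin receptors, which recognise sugars on microbes and self, gave 20 higher and 5 lower of 26 tested. These counts were 8 and 2 with probes above background on all 8 arrays. The higher count was 12 without either Sirpa-positive replicate 3 or Sirpa-positive replicate 5. Besides Clec4a1, Clec4a3 and Clec4n, Cd209a was among the 4 with the smallest p. The 5 lower members were Clec9a, Ly75, Cd207, Clec1a and Clec4b2 (difference -3.10), 3 of which also stood in the type 1 list. Receptors for antibody, the Fc receptors, gave 6 higher and 0 lower of 10. Their shared signalling chain Fcer1g was at 7.02 and 6.78 against 3.68 and 3.13 (11.2-fold higher), Fcgr3 was 15.4-fold higher and the high-affinity receptor Fcgr1 11.5-fold. The Ms4a genes gave 5 higher and 1 lower of 10, the lower one being Ms4a1, which encodes the B cell antigen CD20 (at least 4.12-fold lower). With probes above background on all 8 arrays, 3 Ms4a genes were higher and 0 lower.

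Inhibitory receptors of myeloid cells and their partners gave 17 higher and 1 lower of 28, with a median of 1.69. Requiring probes above background on all 8 arrays left 8 higher. Sirpa belongs to this list. Trem2, a lipid-sensing receptor of macrophages, stood at 2.60 and 2.20 in Sirpa-positive cells against -5.22 and -5.49 (at least 77.7-fold higher, limma adjusted p = 2.37e-05). Pilrb2, with 1 of 2 Sirpa-negative arrays above background, differed by 6.09 ± 0.239, and Lilrb4a, likewise, by 5.79 ± 0.328. The Sirpa ligand Cd47 differed by 0.02 and did not pass (limma adjusted p = 0.966).

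Innate sensors differed in both directions. Of 30 tested, 14 were higher and 3 lower, and 8 were higher without Sirpa-positive replicate 3. Tlr1, a sensor of bacterial lipopeptides, was 17.5-fold higher and Cd14, a co-receptor for lipopolysaccharide, 6.41-fold. Ticam2, an adaptor of TLR4, was at least 10.1-fold higher. Tlr7, a sensor of single-stranded RNA, was at 0.41 and -0.46 against -3.01 and -2.98 (7.86-fold higher, limma adjusted p = 0.00375), and Ddx58, which encodes the cytosolic RNA sensor RIG-I, was 10.9-fold higher. Lower were Tlr11, a sensor of profilin (-1.59 and -1.72 against 2.50 and 2.85, 20.1-fold lower, adjusted p = 8.75e-05), Tlr3, a sensor of double-stranded RNA (15.03-fold lower), and Tlr12, the partner of Tlr11 (2.37-fold lower, limma adjusted p = 0.0261, but 0.0887 to 0.151 without Sirpa-positive replicate 3, Sirpa-positive replicate 5 or Sirpa-negative replicate 7). Tlr9, a sensor of unmethylated DNA, was at 4.33 and 4.44 against 4.17 and 4.19 and did not pass (0.21, 95% interval -0.30 to 0.71).

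Interferon-stimulated genes were higher in part. Of 37 tested, 13 were higher and 0 lower, with a median of 0.74. Ifit3, an inhibitor of viral translation, stood at 5.70 and 5.92 in Sirpa-positive cells against -0.19 and 0.22 (55.5-fold higher, limma adjusted p = 3.43e-05). Rtp4 was at 5.40 and 5.18 against -0.31 and -0.58 (53.05-fold, adjusted p = 5.32e-05). Ifit1 was 17.2-fold higher and Ifitm3, which blocks viral entry, 11.2-fold. The other 24 members did not pass, among them the interferon factors Irf7 (-0.06), Stat2 (-0.43) and Irf9 (-0.16). These 3 factors were named after their values were seen.

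The promoters of these genes are shown because the list is defined by a response that acts through a known element. The 250 bases before the start site, from RefSeq on mouse build GRCm38.p6, were searched on both strands for GAAANNGAAA, the core of the interferon-stimulated response element, and each is written 5′ to 3′ in the direction of its gene with matches in capitals, which run together where they overlap. The letters were found in 17 of the 28 list members with a promoter in the table (60.7%), in 9 of 11 higher members and in 8 of 17 that did not pass, against 2.78% of the 11085 tested genes with a promoter. Among all called genes with a promoter the share was 5.62% for the higher and 3.3% for the lower. Ifit3 (chr19:34583279-34583528, forward strand), Ifit1 (chr19:34640639-34640888, forward strand) and Gbp2 (chr3:142620413-142620662, forward strand) were higher by 5.79, 4.11 and 3.72 on the log2 scale. Isg15 (chr4:156200819-156201068, reverse strand), with 3 matches, differed by 0.25 and did not pass. A match describes the letters and is neither a shown site nor a cause.
Ifit3: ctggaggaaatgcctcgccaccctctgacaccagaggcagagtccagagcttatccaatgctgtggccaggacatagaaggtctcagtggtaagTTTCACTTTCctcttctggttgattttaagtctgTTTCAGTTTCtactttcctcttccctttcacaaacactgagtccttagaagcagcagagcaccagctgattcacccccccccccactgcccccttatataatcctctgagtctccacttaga
Ifit1: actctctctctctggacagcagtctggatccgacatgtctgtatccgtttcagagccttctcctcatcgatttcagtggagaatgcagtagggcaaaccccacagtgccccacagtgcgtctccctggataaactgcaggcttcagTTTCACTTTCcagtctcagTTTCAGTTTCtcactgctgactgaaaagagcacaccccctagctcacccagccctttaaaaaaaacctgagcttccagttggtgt
Gbp2: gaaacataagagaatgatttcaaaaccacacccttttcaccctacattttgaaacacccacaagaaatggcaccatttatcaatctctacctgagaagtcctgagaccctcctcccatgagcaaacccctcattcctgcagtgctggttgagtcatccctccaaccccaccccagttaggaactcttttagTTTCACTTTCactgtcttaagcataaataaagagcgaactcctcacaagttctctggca
Isg15: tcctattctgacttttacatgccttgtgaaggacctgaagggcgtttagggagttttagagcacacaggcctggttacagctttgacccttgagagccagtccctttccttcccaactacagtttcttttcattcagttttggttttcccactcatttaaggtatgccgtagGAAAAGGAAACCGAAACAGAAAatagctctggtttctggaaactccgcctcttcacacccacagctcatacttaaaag

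Another motif, AGGAAGT, the core bound by the myeloid factor PU.1, was searched in the same way. So were ETS-IRF, MAF, C/EBP, lysosomal gene and CSL motifs. In the macrophage and monocyte list, ETS-IRF, MAF and C/EBP motifs were each found in 1 of 20 promoters, and lysosomal gene and CSL motifs in 0. In the order named, these motifs were found in 2.03%, 3.27%, 7.88%, 4.51% and 5.24% of tested genes. AGGAAGT was found in 8 of 20 promoters of the macrophage and monocyte list (40%), in 9 of 25 of the type 2 list (36%) and in 3 of 23 of the type 1 list (13%), against 7.63% of tested genes. Among called genes it was found in 10.8% of the higher and 7.26% of the lower. Spi1, which encodes PU.1, differed by 0.25 between the subsets and did not pass. C1qb (chr4:136886201-136886450, reverse strand), C1qc (chr4:136892915-136893164, reverse strand) and the lysozyme gene Lyz2 (chr10:117282273-117282522, reverse strand), which was higher by 6.63, held 1 match each.
C1qb: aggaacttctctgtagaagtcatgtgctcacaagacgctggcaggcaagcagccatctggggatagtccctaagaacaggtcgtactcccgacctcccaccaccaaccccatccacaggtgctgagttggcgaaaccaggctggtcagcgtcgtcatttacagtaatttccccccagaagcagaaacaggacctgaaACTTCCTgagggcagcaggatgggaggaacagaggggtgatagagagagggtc
C1qc: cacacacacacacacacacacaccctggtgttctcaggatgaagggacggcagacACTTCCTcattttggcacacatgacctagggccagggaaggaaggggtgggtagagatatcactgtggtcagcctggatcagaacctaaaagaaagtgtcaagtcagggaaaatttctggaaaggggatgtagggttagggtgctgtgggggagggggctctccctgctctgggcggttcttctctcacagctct
Lyz2: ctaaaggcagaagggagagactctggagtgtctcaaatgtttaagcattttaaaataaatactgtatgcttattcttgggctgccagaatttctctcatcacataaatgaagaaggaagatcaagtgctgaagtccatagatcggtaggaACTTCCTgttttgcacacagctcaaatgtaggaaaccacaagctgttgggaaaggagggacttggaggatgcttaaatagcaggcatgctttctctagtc

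Chemokine receptors, which set where a cell goes, differed in both directions, with 7 of 16 higher and 3 lower. Ccr6 was 14.9-fold higher and Ccrl2, an atypical receptor that holds chemerin, 7.22-fold, beside Cx3cr1 and Ccr2. Lower were Xcr1, Cxcr3, the receptor of the interferon-induced chemokines (-2.78 and -2.999 against 1.96 and 1.66, 25.9-fold lower, limma adjusted p = 2.62e-04), and Ccr9 (2.11-fold lower, adjusted p = 0.0449, but 0.0928 to 0.285 without any 1 of the 4 arrays). Ccr7, which guides mature cells to the medulla, was at -0.45 and -1.45 against 1.14 and -0.70. Its arrays overlapped between groups, and it did not pass (-1.17 ± 0.597, limma adjusted p = 0.280), although it did without Sirpa-negative replicate 7 (adjusted p = 0.0409).

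Among chemokine ligands, 9 of 21 were higher and 2 lower. Ccl17, which attracts CCR4-bearing thymocytes, stood at 6.48 and 6.65 in Sirpa-positive cells against 2.66 and 1.47 (22.5-fold higher, limma adjusted p = 4.10e-04). Ccl9 was 156-fold higher, Ccl8 at least 24.5-fold and Ccl6 22.02-fold, all 3 made by macrophages. Lower were Xcl1, the ligand of XCR1 (at least 3.53-fold lower), and Cxcl9, a ligand of CXCR3 (2.67-fold lower, adjusted p = 0.0273, but 0.137 to 0.144 without Sirpa-positive replicate 5 or Sirpa-negative replicate 4). Ccl22, which shares the receptor of Ccl17, was at 0.50 and -0.73 against -0.54 and -2.55. Its 2 groups overlapped and it did not pass (1.43 ± 0.680, adjusted p = 0.249), although it did without Sirpa-negative replicate 4 (adjusted p = 0.0490).

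Cytokine genes gave 7 higher and 1 lower of 24, and 3 higher with probes above background on all 8 arrays. Il1b stood at 3.32 and 2.97 in Sirpa-positive cells against 0.19 and 0.06 (8.11-fold higher, limma adjusted p = 9.22e-04), and Il1rn, the antagonist of its receptor, at 2.90 and 2.35 against -3.30 and -3.66, with 1 of 2 Sirpa-negative arrays above background (6.10 ± 0.335, adjusted p = 7.43e-05). The decoy receptor gene Il1r2 was 21.2-fold higher as well. The ligand gene Il1a and the receptor gene Il1r1 were also called higher, so that ligands, receptor, antagonist and decoy lay on the same side. Osm was at least 3.24-fold higher and Tnfsf12, which encodes TWEAK, 6.27-fold. Il15 was the lower member (2.63-fold lower, adjusted p = 0.0270, but 0.0870 to 0.146 without Sirpa-positive replicate 5, Sirpa-negative replicate 4 or Sirpa-negative replicate 7). Tgfb1 was at 2.29 and 2.55 against 2.36 and 2.15 and did not pass (0.16, 95% interval -0.32 to 0.64).

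Cytokine receptor genes gave 19 higher and 1 lower of 41, the lower one being Flt3, and 11 higher without either Sirpa-positive replicate 3 or Sirpa-positive replicate 5. The common gamma chain Il2rg was at 5.99 and 5.86 against 3.005 and 2.27 (9.78-fold higher, limma adjusted p = 3.79e-04), and its partner Il21r was 13.1-fold higher. Il7r, which pairs with the same chain, was 6.60-fold higher, and Il27ra, a receptor chain for interleukin-27, at least 2.98-fold.

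Lysosomal proteases, which cut antigen for loading, were higher in the main. Of 19 tested, 11 were higher and 3 lower, with 9 to 10 higher when 1 array at a time was left out. Ctsd stood at 5.82 and 5.66 in Sirpa-positive cells against 0.11 and -0.26 (56.2-fold higher, limma adjusted p = 2.37e-05). Lgmn, asparaginyl endopeptidase, was 18.4-fold higher, Ctsl 14.5-fold, Ctsc 6.49-fold and Ctsb 4.76-fold. Lower were Ppt1, a thioesterase (4.13 and 3.89 against 6.92 and 6.99, 7.72-fold lower, adjusted p = 2.07e-04), Naaa, an amidase (10.8-fold lower), and the protease inhibitor gene Cst3 (2.90-fold lower, limma adjusted p = 0.00658, but 0.0542 without Sirpa-positive replicate 3).

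Few of the MHC genes themselves passed, in lists to be read beside the 15% of RefSeq genes called. In the MHC class II list 5 of 18 were higher and 1 lower, and all 5 higher members were proteases shared with the lysosomal list (Ctsd, Lgmn, Ctsl, Ctsb and Ctss, the last by 1.11). The class II transactivator gene Ciita was at 3.73 and 4.01 against 3.97 and 3.71 (0.03, 95% interval -0.59 to 0.65, limma adjusted p = 0.958). The lower member H2-Ob, a chain of an inhibitor of peptide loading, was 2.23-fold lower (adjusted p = 0.0209, but 0.0839 to 0.151 without Sirpa-positive replicate 3, Sirpa-positive replicate 5 or Sirpa-negative replicate 4). In the class I and cross-presentation list 6 of 28 were lower and 1, the GTPase Rac2, was higher (2.67-fold, adjusted p = 0.00846, but 0.0666 without Sirpa-positive replicate 5). The lower members included the immunoproteasome subunit Psmb9 (3.16-fold lower, limma adjusted p = 0.00479), Tapbpl (2.56-fold, adjusted p = 0.00500) and the peptide transporter chain Tap2 (2.22-fold, adjusted p = 0.0142). This count was 0 without Sirpa-positive replicate 3, 2 without Sirpa-positive replicate 5, 2 without Sirpa-negative replicate 4 and 3 without Sirpa-negative replicate 7.

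Genes of lipid and cholesterol handling differed in both directions. Of 29 tested, 10 were higher and 3 lower, 16 did not pass, and the median difference was 0.20. Apoe, the carrier apolipoprotein made by macrophages, stood at 8.84 and 8.15 in Sirpa-positive cells against 0.98 and 0.28 (233-fold higher, limma adjusted p = 3.36e-05). The cholesterol exporter gene Abca1 was at 3.49 and 2.73 against -3.74 and -4.70, at least 127-fold higher, and Nr1h3, which encodes the oxysterol receptor LXRα, was 18.9-fold higher. These 3 genes of 1 efflux route lay on the same side, but they were named for their small p among the higher members. Lower were Cd36, Fdps, an enzyme of sterol synthesis (3.35-fold lower, adjusted p = 0.00454), and Plin2, a coat protein of lipid droplets (1.90-fold lower, adjusted p = 0.0219, but 0.0818 to 0.163 without any 1 of the 4 arrays).

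In the prostaglandin and leukotriene list 14 of 23 were higher and 1 lower, and 8 were higher without either Sirpa-positive replicate 3 or Sirpa-positive replicate 5. Hpgds, which makes prostaglandin D2, stood at 1.93 and 2.09 against -0.97 and -0.97 (7.87-fold higher, limma adjusted p = 1.18e-04). The lipoxygenase gene Alox15 was 19.2-fold higher, and the prostacyclin receptor gene Ptgir at least 9.44-fold. Ptger2, a receptor for prostaglandin E2, was the lower member (at least 7.85-fold lower). Purinergic receptors and ectonucleotidases gave 7 higher and 0 lower of 16, led by P2ry13 (11.9-fold) and the adenosine receptor gene Adora2b (10.67-fold). That count was 4 without Sirpa-positive replicate 3, Sirpa-negative replicate 4 or Sirpa-negative replicate 7.

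Genes of reactive oxygen and of adhesion differed at single members, in lists to be read beside the 15% of RefSeq genes called. Cybb, the catalytic subunit of the phagocyte oxidase, stood at 6.27 and 6.10 in Sirpa-positive cells against 1.10 and 1.10 (33.9-fold higher, limma adjusted p = 2.37e-05), in a list with 4 of 13 higher and 1 lower. The lower member, Ncf4, was not called without any 1 of the 4 arrays. Hmox1, which breaks down heme, was 5.72-fold higher. Of 19 leukocyte integrin genes 3 were higher and 2 lower (0 lower without Sirpa-positive replicate 5, and 1 without Sirpa-positive replicate 3 or Sirpa-negative replicate 4), with Itga9 at least 23.2-fold higher. Itgal, which encodes the LFA-1 α chain, was 2.70-fold lower (adjusted p = 0.00734, but 0.0520 to 0.0594 without Sirpa-positive replicate 3 or Sirpa-positive replicate 5). Of 19 S100 and annexin genes 7 were higher and 2 lower, 1 without any 1 of the 4 arrays, with S100a6 3.48-fold and S100a10 3.30-fold higher beside S100a4.

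Fewer of the costimulation and maturation genes passed than of the lineage markers. Cd40, the receptor named in the study's title, stood at 3.24 and 2.82 in Sirpa-positive cells against 2.54 and 2.47. All 4 arrays were well above background, and the difference of 0.53 ± 0.314 did not pass (95% interval -0.21 to 1.26, limma adjusted p = 0.356). Cd80 was at 1.12 and 1.26 against 1.52 and 1.23 and did not pass either (-0.19, 95% interval -0.73 to 0.35). Cd86, which binds the same T cell molecules as Cd80, was at 1.12 and 0.96 against 2.92 and 2.97 and lower by 3.74-fold (limma adjusted p = 0.00148). The 2 ligands of CD28 thus gave different results, though the difference between them was not tested.

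Of 23 costimulatory and coinhibitory genes 6 were higher and 2 lower, and 3 were higher without either Sirpa-positive replicate 3 or Sirpa-positive replicate 5. Cd274, which encodes the coinhibitory ligand PD-L1, was at -0.19 and -0.45 against -2.82 and -3.90 (8.20-fold higher, limma adjusted p = 0.00219). Nectin2 was 7.25-fold higher and Pdcd1lg2, which encodes PD-L2, differed by 4.05 ± 0.928 (adjusted p = 0.0318, but 0.109 to 0.177 without Sirpa-positive replicate 3 or Sirpa-positive replicate 5). Of 37 genes of maturation and migration 6 were higher and 3 lower, with 3 higher without Sirpa-positive replicate 3 and 11 without Sirpa-negative replicate 4. In the list of regulatory T cell support 5 of 20 were higher, 3 without Sirpa-positive replicate 3, and 2 lower. Only 2 genes of this list were higher with probes above background on all 8 arrays. The 5 higher members included Ccl17, Aldh1a2, which makes retinoic acid (-2.71 and -2.79 against -5.30 and -5.50, at least 2.19-fold higher, limma adjusted p = 4.70e-04), and the tryptophan-degrading enzyme gene Ido2 (at least 4.401-fold higher).

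Notch genes that passed were lower apart from the target Cd7. Of 18 tested, 4 were lower and 1 higher, beside 15% of RefSeq genes called in either direction. Notch4 stood at -2.12 and -1.64 in Sirpa-positive cells against 3.95 and 3.85 (limma adjusted p = 4.30e-04) and the ligand gene Jag2 was at least 4.97-fold lower. Hes1 (2.99-fold lower, adjusted p = 0.0242) and Rbpj (2.20-fold lower, adjusted p = 0.0443) were not called without Sirpa-positive replicate 3 (adjusted p = 0.0749 and 0.287), without Sirpa-positive replicate 5 (0.139 and 0.0546) or without Sirpa-negative replicate 7 (0.115 and 0.185), which left 2 lower members each time, and Rbpj was not called without Sirpa-negative replicate 4 either (0.0912).

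Genes of the cell cycle gave few calls and those of glycolysis and cell survival a larger share, to be read beside the 7.23% higher and 4.39% lower of all genes. In the cell cycle list 1 of 37 was higher, Ccnd2 (2.27-fold, limma adjusted p = 0.0204, but 0.0853 to 0.114 without Sirpa-positive replicate 5, Sirpa-negative replicate 4 or Sirpa-negative replicate 7), and 1 lower, Rrm2 (1.90-fold, adjusted p = 0.0280, but 0.0811 to 0.152 without any 1 of the 4 arrays). The proliferation marker Mki67 differed by -0.46 and did not pass. Of 22 glycolysis genes 5 were higher, 3 without Sirpa-positive replicate 5, and 1, Pgk1, lower, with Ldhb 11.5-fold and the glucose transporter Slc2a3 3.76-fold higher. In the Bcl2 family 2 of 15 were higher and 2 lower, with 1 higher without any 1 of the 4 arrays: the cell death gene Bcl2l11 was 3.83-fold higher and Bid 3.48-fold lower. Of 14 housekeeping genes 0 were higher and 2 lower, Gusb (2.26-fold lower, adjusted p = 0.00843, but 0.0875 without Sirpa-positive replicate 3) and Pgk1 (1.99-fold lower, adjusted p = 0.0298, but 0.0998 to 0.194 without any 1 of the 4 arrays).

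Counts for the remaining cell types were smaller. Thymocyte and T cell markers gave 3 higher and 1 lower of 28, beside 7.23% and 4.39% of all genes. Cd4, also carried by type 2 and plasmacytoid dendritic cells, was at 5.07 and 4.73 against 1.48 and 1.80 (9.59-fold higher, limma adjusted p = 1.63e-04), beside Il7r and Thy1 (1.74-fold, adjusted p = 0.0325, but 0.112 to 0.187 without any 1 of the 4 arrays), and the lower one was Cd8a. The T cell receptor chain gene Cd3e differed by 0.09 and did not pass, and the summed signal of the list was 59.98 and 54.1 on the Sirpa-positive arrays against 52.6 and 41.7. Of 21 plasmacytoid dendritic cell markers 7 were higher and 1 lower, with sums of 354 and 341 against 293 and 301. That is a larger share higher than the 7.23% of all genes. The higher ones included Cd4, Tcf4, Tlr7, Cd209d and Lair1, and the lower one was Ccr9. B cell markers gave 2 higher and 2 lower of 11, natural killer and innate lymphoid markers 1 and 2 of 10, neutrophil markers 2 and 0 of 9, and thymic epithelial markers 3 and 0 of 13. Several of these counts moved by 1 gene when an array was left out. Of the epithelial genes Epcam was 4.39-fold and the basal keratin Krt5 3.69-fold higher. Tissue kallikreins, whose sequences are alike, gave 2 higher and 0 lower of 13, with 4 lower without Sirpa-positive replicate 5, and neither of 2 erythroid genes nor the 1 sex-linked gene tested passed. With probes above background on all 8 arrays, 0 tissue kallikreins were higher. The part of these other cell types in the differences was not tested.

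**Figure D4:**
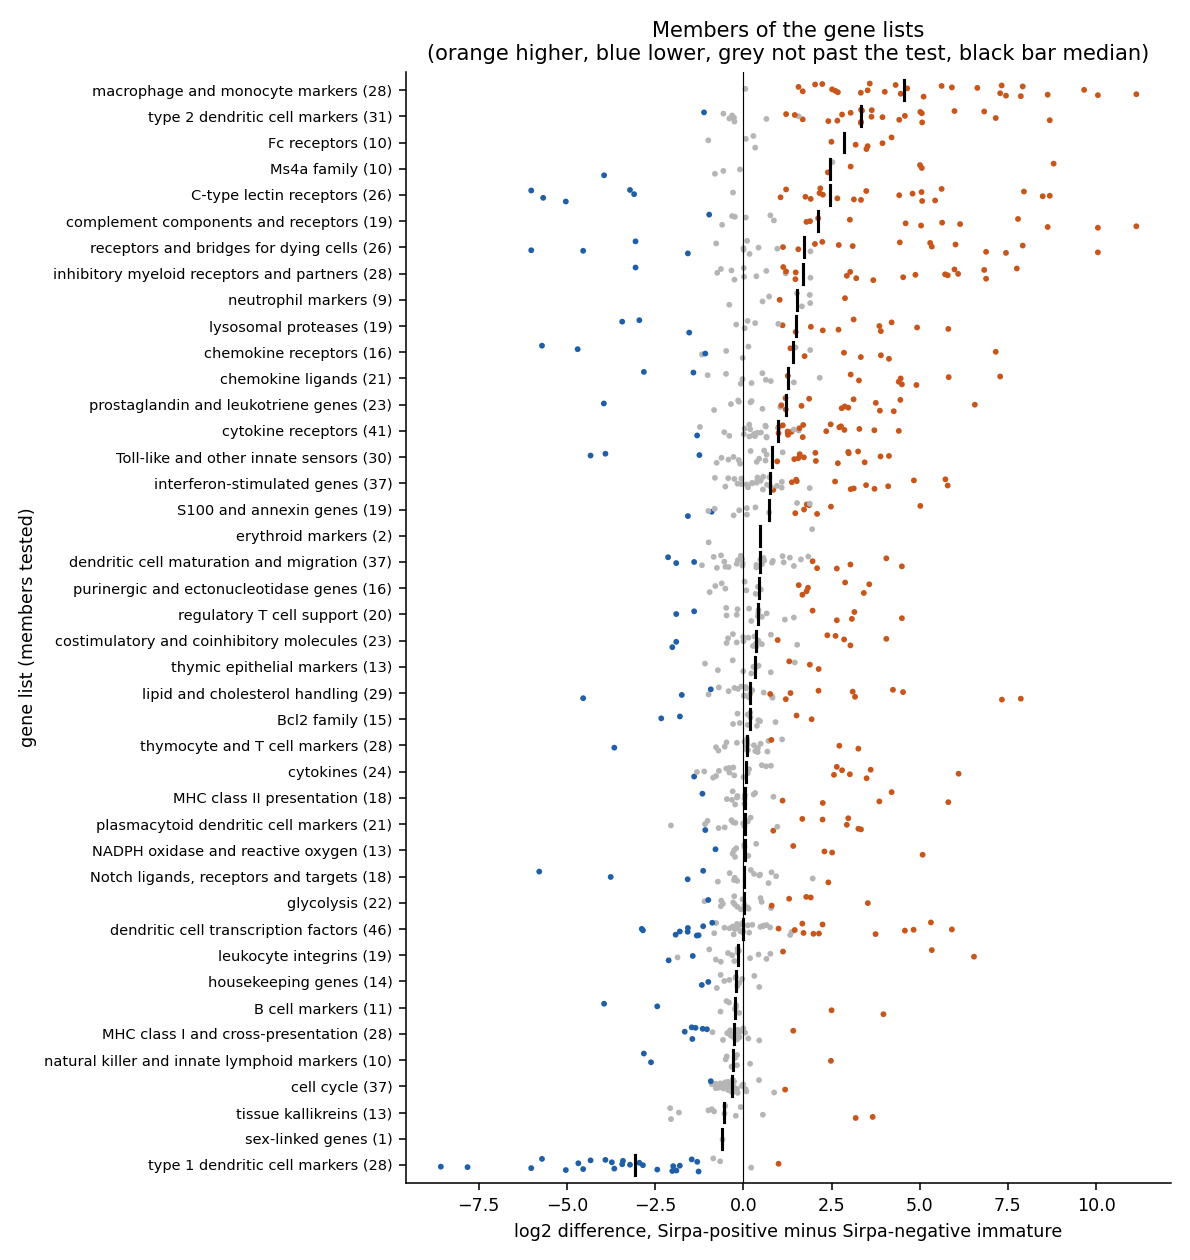
Log2 difference between Sirpa-positive and Sirpa-negative immature cells (horizontal axis) for each tested member of 42 gene lists (vertical axis, number tested in brackets). Orange points were higher, blue lower and grey not past the test, and the black bar is the median, which ran from -3.08 for type 1 dendritic cell markers to 4.55 for macrophage and monocyte markers.

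The mature arrays gave the same contrast in other samples, which enter the immature comparison through the estimate of the spread and the filter on dim probes, both taken over all 8 arrays. There, 1322 genes (5.47%) were called, 815 higher (3.38%) and 507 lower (2.1%). Of the 1746 genes higher among immature cells, 1606 (92.0%) had the same sign in mature cells and 708 (40.5%) were called higher. Of the 1060 lower genes, 1015 (95.8%) had the same sign and 343 (32.4%) were called lower, and 4 genes were called in opposite directions. Seen from the other side, 86.9% of the genes higher and 67.7% of those lower among mature cells were called the same way among immature ones. Across genes the 2 differences correlated with Pearson's r of 0.73 and Spearman's rho of 0.48, given as a description over 24148 genes that are not independent and share the slide.

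Single genes gave the following differences in immature and in mature cells. Sirpa differed by 6.83 among immature and 4.82 among mature cells. Irf4 differed by 4.58 and 1.23, and this gap of 3.35 ± 0.350 had a limma adjusted p of 0.0688 in the test of the gap itself, the smallest value there, which 25 genes share. Cd274 differed by 3.04 among immature and by -0.06 among mature cells, Axl, another of the 25, by 7.45 and 2.25, and Cx3cr1 by 7.16 and 8.13. In this test limma called 0 of 24148 genes, with 1946 at an unadjusted p under 0.05. It called 178 under normexp with quantile normalization, 148 on the authors' values, 101 with probes above background on all 8 arrays and 186 with trended and robust variances. A change of the subset difference with maturation was therefore called or not depending on the processing.

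**Figure D5:**
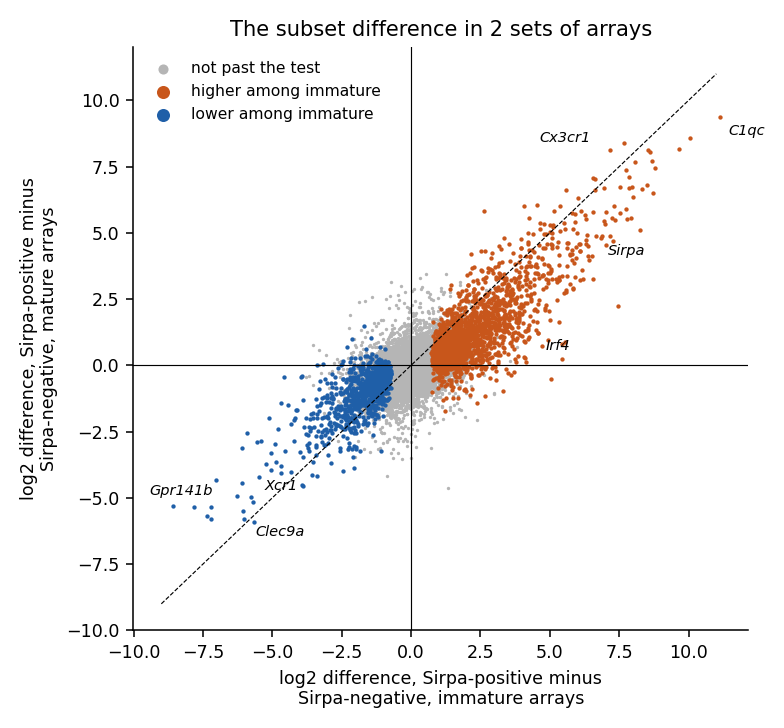
Log2 difference between Sirpa-positive and Sirpa-negative cells among mature arrays (vertical axis) against that among immature arrays (horizontal axis), 1 point a gene, with the dashed line at equal differences. Genes called among immature cells are orange (higher) and blue (lower), and Irf4 lies below the line at 4.58 and 1.23.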

How the data were processed

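The study measured RNA of sorted thymic dendritic cells on 1-colour Agilent arrays. The scanner files hold the spot intensity after background subtraction (processed signal), which the authors deposited without normalization between arrays, made with Agilent Feature Extraction 10.7.3.1 per the file headers. The submitters' processing notes give version 10.5 and also name limma, which leaves the version unsettled. A table of log2 values that the authors deposited is quantile-normalized, as its columns show (medians 5.99 to 6.01), and it was used as an alternative.

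From the 55681 probes (59305 spots without controls), spots marked as outliers were left out, the array's 75th percentile was subtracted from the log2 signal and spots of a probe were averaged. A probe was kept where both arrays in 1 group or more were well above background (33689 probes), and each gene was taken as its brightest kept probe. Where a gene's group was below background on both arrays, its fold is a bound against the higher of its own signal and the lowest signal above background. Group means over 8 arrays were compared with limma 3.58.1 (R 4.3.3), two-sided, adjusted over all 24148 genes. Groups came from the sample titles. The script was tested on simulated data.

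The comparison, the 42 gene lists (1009 of 1034 entries on the array, 899 tested) and the tests were chosen with earlier results of these data known. Named genes are the 15 with the largest change each way among called genes with a symbol that did not overlap and were above background in the higher group, up to 4 each way with the smallest p per list, and a fixed set of lineage and sorting genes. Cd47, Cd3e, Clec4b2, Ctss, Gbp2, Il1a, Il1r1, Irf7, Irf9, Isg15, Lyz2, Mki67, Spi1 and Stat2 were added after their values were seen. Alternatives were normexp background correction with offset 50 and quantile normalization, median scaling or quantile normalization alone, the authors' values, looser and stricter filters on dim probes, the mean of a gene's probes, trended and robust variances, the 4 immature arrays alone, the slide row as a block and leaving out each array. Promoters came from RefSeq (GRCm38.p6). A few genes that met the rule are not reported here.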

Additional observations from a re-analysis of the deposited data

How the results depend on the processing

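The immature count of 2806 genes lay between 2205 (slide row as a block) and 3377 (trended and robust variances) in 9 alternatives, and was 1557 with dim probes kept and 1232 to 2016 when 1 of the 4 arrays was left out, a fit in which the lone array of a group is assumed to vary like the other groups. The mature count of 1322 was 579 with dim probes kept and 982 to 1264 without 1 immature array. The count of genes whose subset difference changed with maturation was 0 under quantile normalization, with dim probes kept, with the row block and in each leave-one-out fit, and 178 under normexp with quantile normalization, 1 under median scaling, 148 on the authors' values, 101 with probes above background on all 8 arrays, 4 with the mean of probes and 186 with trended and robust variances. Sirpa passed in all 14 alternatives (5.85 to 6.90). Of 195 named or listed genes that passed, 151 passed in every alternative that measured them, 14 in all but 1 or 2, and all 195 kept their direction. Itgam turned from -0.32 to 1.27 with the mean of its probes. Of 41 list counts of 3 or more, 20 stayed within 1.5 times in all 14 alternatives. The groups share no replicate number, so the slide row, with 1 array of each group, was the only block fitted. With 2 arrays a group, the smallest difference called was 0.72, and levels below background are bounds only.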

Other observations

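Several of the higher genes lie next to each other in the RefSeq order. Among 13571 tested genes placed in that order, 15 runs of at least 4 neighbours were all higher in Sirpa-positive immature cells and 2 such runs were all lower. Of the 13867 genes with a RefSeq symbol 1345 were higher and 739 lower, so higher runs had more genes to form from. How many runs these shares alone would give was not tested. The longest run held 7 genes from Car13 to Gm5150, including Sirpb1a, Sirpb1b and Sirpb1c, with differences from 1.22 to 7.85. Runs of 6 were formed by the Oas genes from Oas2 to Oas1h (1.34 to 2.60), which sense double-stranded RNA, and by the genes from Pgghg to Ifitm6 (1.29 to 3.63). Runs of 5 held Cd300 receptors (1.48 to 6.88), Ms4a genes (2.40 to 5.06), the Clec4g and Cd209 genes (3.13 to 5.44), and the stretch from Insl6 to Ric1 with Cd274 and Pdcd1lg2 (0.83 to 4.05). P3h3, Gpr162, Cd4 and Lag3 formed a run of 4 (2.07 to 3.26). The lower runs were Fndc7 to Fam102b (-3.41 to -0.996) and Mospd1 with the Rtl8 genes (-2.37 to -1.31). Several of these runs hold close paralogs, and whether their probes bind each other's RNA was not tested.

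Probes without a gene symbol carried fewer calls. Of 3498 intergenic noncoding probes named by position, 99 were higher and 96 lower (5.57% called), whereas 1345 and 739 of 13867 RefSeq genes were (15%). Of 6783 features known by another accession, 302 were higher and 225 lower (7.77%).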
